A study of Mus musculus with 6 samples.

Results

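Lysosomal transcripts were examined as a set of 44 mouse genes, which encode lysosomal hydrolases, lysosomal membrane proteins, subunits of the lysosomal proton pump and regulators that include the transcription factor TFEB. The set was given as a list of symbols, and all 44 were among the 30055 genes of the deposited count table and passed the filter on low counts. RNA was sequenced from lung endothelial cells in culture, taken from C57BL6 mice without Ch25h that were labelled female and 3 weeks old. Ch25h encodes the enzyme that makes 25-hydroxycholesterol, and every group carried its loss. One group received extracellular vesicles of MC38 mouse colorectal tumour cells (TEV, 20 µg/ml for 12 h) after reserpine (10 µM for 8 h), a blocker of vesicular monoamine transporters. The second group received TEV alone, and the third received vehicle. Each group held 2 libraries. Cells given reserpine without vesicles were not analysed here, so what reserpine does by itself and what it does to the response to vesicles cannot be told apart.

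The lysosome is the acidic compartment in which endocytosed and autophagic cargo is degraded. A proton pump of the V-ATPase type keeps it acidic, proteases, glycosidases, sulphatases and lipases digest the cargo, and heavily glycosylated membrane proteins line its wall. In endothelial cells it also receives vesicles that are taken up from outside. TFEB and its relatives TFE3, MITF and TFEC are transcription factors that bind a CACGTG-centred element in the promoters of many lysosomal genes, and nutrient signalling at the lysosome surface keeps TFEB and TFE3 in the cytoplasm.

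The TFEB element was looked for in the 250 bases before each annotated start (RefSeq, GRCm38.p6), as the letters CACGTG and as the longer palindrome TCACGTGA, which always holds CACGTG. Both read the same on either strand. Of 40 members with such a window, 16 held CACGTG (40.0%, against 6.86% of 27025 genes) and 6 held the palindrome (15.0%, against 0.907%). CACGTG was present in 4 of 9 members that were called higher with TEV than with vehicle, in 5 of 16 called lower and in 7 of 15 not called. The 4 windows printed are those of the palindrome-bearing members with a call in that comparison, of which Ctsa and Cln3 were called higher with TEV and Ctsd and Gla lower. Ctsa and Cln3 each have another annotated start, whose window (chr2:164832622-164832871 and chr7:126585818-126586067) holds no CACGTG and is not printed. The calls of Ctsa, Ctsd and Gla ended in 4, 6 and 3 of the 15 alternative settings tried, and that of Cln3 in none. Capitals mark each CACGTG. Ctsa lies on the plus strand (chr2:164833523-164833772) and the other three on the minus strand (Cln3 at chr7:126583237-126583486, Ctsd at chr7:142387828-142388077 and Gla at chrX:134601006-134601255).
Ctsa: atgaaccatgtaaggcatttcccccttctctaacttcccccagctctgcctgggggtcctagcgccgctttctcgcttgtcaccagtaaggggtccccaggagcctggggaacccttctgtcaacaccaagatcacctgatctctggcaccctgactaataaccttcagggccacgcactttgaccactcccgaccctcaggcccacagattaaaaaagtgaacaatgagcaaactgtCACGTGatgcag
Cln3: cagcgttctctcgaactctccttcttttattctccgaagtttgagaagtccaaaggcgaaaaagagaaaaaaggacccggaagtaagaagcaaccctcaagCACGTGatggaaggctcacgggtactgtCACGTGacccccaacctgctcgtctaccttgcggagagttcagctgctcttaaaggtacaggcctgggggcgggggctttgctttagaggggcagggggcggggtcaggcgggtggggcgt
Ctsd: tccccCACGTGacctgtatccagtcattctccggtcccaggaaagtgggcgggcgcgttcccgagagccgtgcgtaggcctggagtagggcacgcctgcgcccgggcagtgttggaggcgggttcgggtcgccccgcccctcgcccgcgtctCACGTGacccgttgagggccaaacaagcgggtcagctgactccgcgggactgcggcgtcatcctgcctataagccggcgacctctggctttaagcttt
Gla: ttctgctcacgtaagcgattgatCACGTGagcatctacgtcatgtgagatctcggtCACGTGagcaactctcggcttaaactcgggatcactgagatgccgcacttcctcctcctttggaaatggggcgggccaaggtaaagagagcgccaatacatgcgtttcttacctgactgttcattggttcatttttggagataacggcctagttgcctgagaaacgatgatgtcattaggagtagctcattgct
Distances run from the first letter of the element to the annotated start that follows the printed window. The element lies 12 bases before that start in Ctsa, 149 and 121 bases before it in Cln3, 245 and 98 in Ctsd, and 227 and 194 in Gla. A match of letters is a description of the window and not a measurement of binding.

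Total depth was between 22270657 and 81225627 estimated counts a library, so a count of 3 corresponded to 0.0369 to 0.135 counts scaled to library size (CPM). Ch25h had 24 and 32 counts with TEV plus reserpine, 12 and 41 with TEV and 15 and 9 with vehicle, and since the sources used here do not give the deleted part of the gene, these reads do not check the genotype. Replicates differed by more than sampling noise, and the chi-square per gene averaged 20.6 within TEV plus reserpine, 43.3 within TEV and 19.5 within vehicle. This value grows with depth, and the deepest library was a TEV library, so it does not rank the groups by spread. Nothing in the labels says that replicates were separate cultures or animals, so p-values measure the spread between these libraries. Endothelial markers were present in every library: Pecam1 stood at 1750 and 1770 CPM with TEV plus reserpine, 2030 and 1930 with TEV and 735 and 747 with vehicle. The vehicle libraries also held transcripts of other cells. The 15 fibroblast markers summed to 507 and 456 CPM with TEV plus reserpine and 344 and 399 CPM with TEV, against 3414 and 2976 CPM with vehicle. Thy1 made up most of the sums in the vesicle groups and ran against the total. It had 409 and 375 CPM with TEV plus reserpine, 286 and 333 CPM with TEV and 99 and 90.7 CPM with vehicle. Col1a2 had 2.68 and 2.58 CPM, 1.3 and 2.16 CPM and 1470 and 1250 CPM in the same groups. In bulk RNA, fewer cells of a type and less RNA per cell cannot be told apart.

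With TEV, more of the 44 members were called lower than higher relative to vehicle, and the set did not move as a block. With a threshold of 0.05 on the adjusted p of edgeR's quasi-likelihood test, 11 members rose and 18 fell (65.9% of 44, against 49.7% of the 15035 genes tested, 25.1% higher and 24.6% lower). The change reached 2-fold in 3 of those that rose and 7 of those that fell, of 44. Of all genes tested, 23% were called with a change of at least 2-fold. The median absolute log2 change was 0.37 over the members and 0.52 over all genes. The median log2 change was -0.09 over the members and 0.01 over all genes. Of the calls, 5 higher and 11 lower held under all 15 alternative settings, which include leaving out each library. With TEV plus reserpine relative to TEV, 6 members rose and 13 fell (43.2%, against 31.6% of all genes, 15.7% higher and 16% lower), with medians of 0.01 over the members and 0 over all genes, and 3 and 5 of these calls held throughout. With TEV plus reserpine relative to vehicle, 5 rose and 16 fell (47.7%, against 39.1% of all genes, 19.1% higher and 19.9% lower), with medians of -0.18 and -0.02, and 3 and 11 held throughout. The 3 comparisons share libraries, and each is given by its own values. The 11 higher calls with TEV became 6 without vehicle replicate 1, 5 without vehicle replicate 2 and 7 without TEV replicate 1. The 6 and 13 calls between the vesicle groups became 3 and 7 without TEV replicate 1, 5 and 6 without replicate 1 of TEV plus reserpine and 6 and 7 without its replicate 2. The 5 higher calls with TEV plus reserpine relative to vehicle became 3 without either vehicle library. Scaled by library size alone, the TEV against vehicle counts became 6 higher and 21 lower and those of TEV plus reserpine against TEV 9 and 9, while the all-gene medians moved to -0.11 and 0.08. Summed over the 44 members, CPM came to 9122 and 8880 with TEV plus reserpine, 9457 and 9026 with TEV and 11110 and 11190 with vehicle. Both vesicle groups thus lay below vehicle in every library. Abundant genes weigh most in this sum. Mean CPM with vehicle and with TEV was 1510 and 609 for Ctsb, 962 and 549 for Ctsl, 2050 and 1750 for Ctsd. It was 1310 and 1010 for Psap, and 1110 and 1200 for Lamp1. The proton pump and regulator members summed to 1.08 and 1.47 times vehicle with TEV. Only Atp6v1h and Tfe3 were called among them in that comparison. Mean CPM with vehicle and with TEV was 107 and 165 for Atp6v1h, 88.5 and 179 for Tfe3, and 78.2 and 65.3 for Lamtor1.

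**Figure D1:**
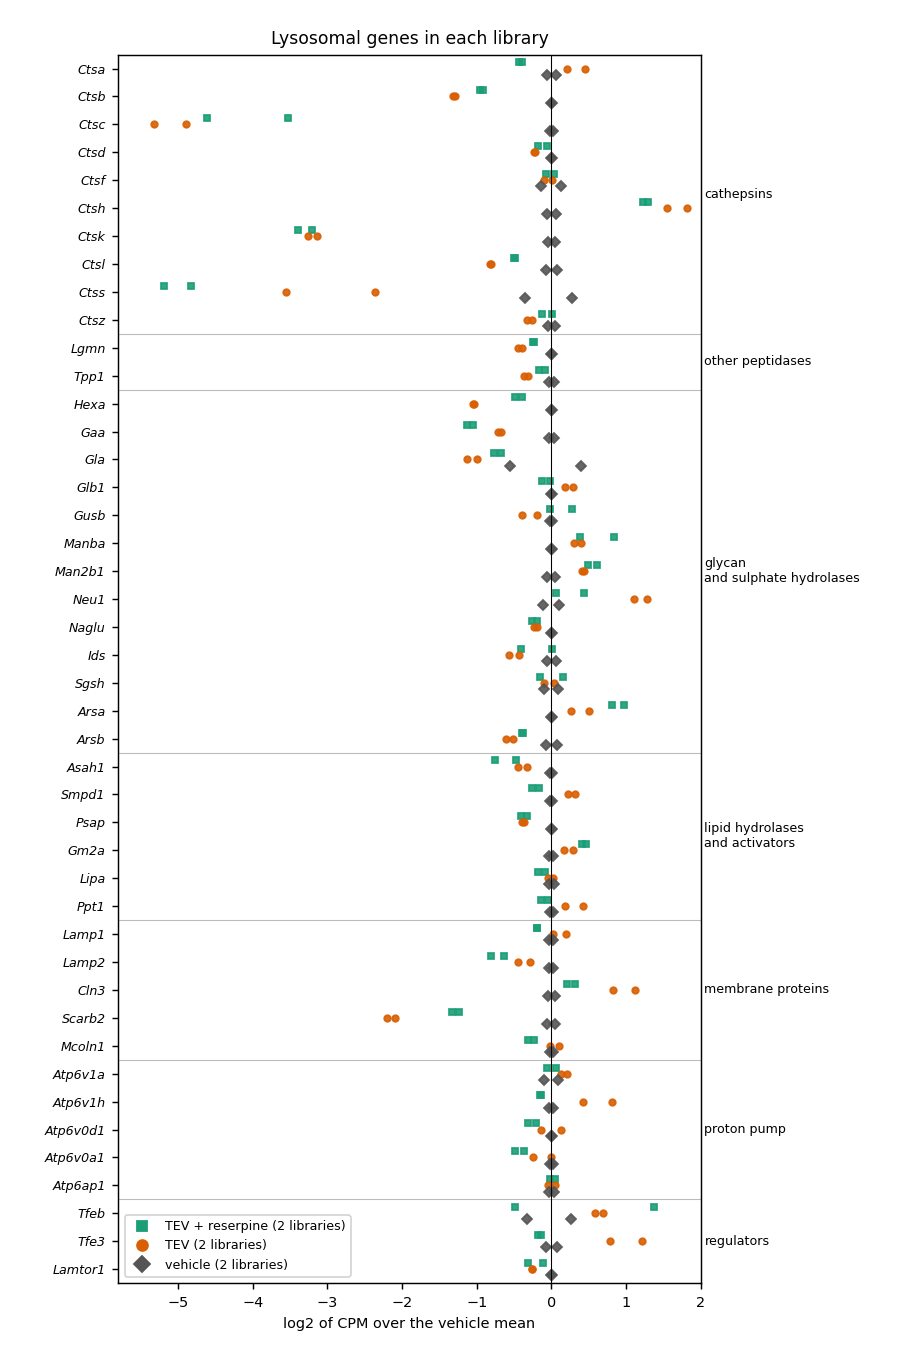
Each of the 44 members in each library, as log2 of its CPM over the mean of the vehicle libraries; squares are TEV plus reserpine, circles TEV and diamonds vehicle (2 libraries each). Ctsc, Ctss and Ctsk lie far to the left in both vesicle groups, Ctsh lies to the right in both, and Neu1, Cln3 and Tfe3 lie to the right with TEV.

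**Figure D2:**
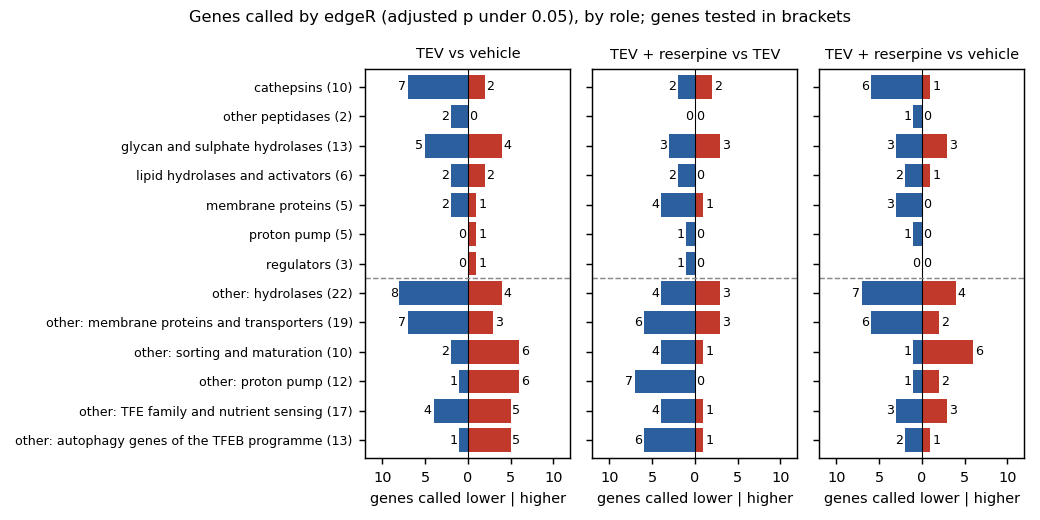
Number of genes called lower (blue, to the left) and higher (red, to the right) by edgeR at an adjusted p under 0.05, by role, in the 3 comparisons; numbers in brackets are genes tested, and the 6 lists under the dashed line are the 93 other lysosomal genes. With TEV relative to vehicle, 49.7% of all genes were called. In that comparison 2 of 10 cathepsins were higher and 7 lower, and 1 of 5 proton pump members was called. Of the 12 other proton pump genes, 6 were higher and 1 lower.

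Cathepsins are proteases of the lysosome. Of 10, 2 rose and 7 fell with TEV relative to vehicle (90%, against 49.7% of all genes). Of these calls, 1 and 5 held under all alternatives. Relative to TEV, 2 rose and 2 fell with TEV plus reserpine (40%, against 31.6%). Relative to vehicle, 1 rose and 6 fell with TEV plus reserpine (70%, against 39.1%). Ctsb, which encodes the cysteine protease cathepsin B, had 801 and 777 CPM with TEV plus reserpine, 613 and 605 CPM with TEV and 1500 and 1510 CPM with vehicle. Its 3 groups did not overlap, with TEV lowest and vehicle highest. It fell by 1.31 ± 0.06 on the log2 scale with TEV (SE, edgeR adjusted p = 2.24e-05), was higher with TEV plus reserpine than with TEV by 0.37 ± 0.06 (0.00750) and remained under vehicle (-0.93 ± 0.06, 0.000132). Ctsl, the gene of the cysteine protease cathepsin L, had 677 and 687 CPM with TEV plus reserpine, 546 and 551 CPM with TEV and 913 and 1010 CPM with vehicle. The order of the groups was that of Ctsb, without overlap. Its log2 changes were -0.81 ± 0.08 for TEV against vehicle (adjusted p = 0.000255), 0.31 ± 0.08 for TEV plus reserpine against TEV (0.0218) and -0.50 ± 0.08 against vehicle (0.00290). The call of Ctsl between the vesicle groups ended without TEV replicate 1 (0.0907) or with either library of TEV plus reserpine left out (0.0680 and 0.0802).

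Ctsh, the gene of the aminopeptidase cathepsin H, went the other way. It had 118 and 113 CPM with TEV plus reserpine, 169 and 140 CPM with TEV and 46.0 and 50.1 CPM with vehicle. All vesicle libraries lay above both vehicle libraries. It rose by 1.68 ± 0.11 with TEV (adjusted p = 6.46e-05) and by 1.27 ± 0.11 with TEV plus reserpine relative to vehicle (0.000302), and was lower by edgeR with TEV plus reserpine than with TEV (-0.42 ± 0.11, 0.0287). That last call ended without TEV replicate 1 (0.119) or with either library of TEV plus reserpine left out (0.0848 and 0.118). Ctsa, which encodes the carboxypeptidase that protects beta-galactosidase and neuraminidase in a complex, had 244 and 236 CPM with TEV plus reserpine, 438 and 369 CPM with TEV and 332 and 307 CPM with vehicle. The groups did not overlap, and the lowest libraries were those with reserpine. Ctsa fell with TEV plus reserpine relative to TEV (-0.75 ± 0.10, 0.00323), a call that held under all alternatives. Its rise with TEV (0.34 ± 0.10, 0.0289) ended with library size alone (0.0987) and without vehicle replicate 1 (0.0631), vehicle replicate 2 (0.151) or TEV replicate 1 (0.100). Its fall with TEV plus reserpine relative to vehicle (-0.41 ± 0.10, 0.0183) ended without vehicle replicate 1 (0.106) or either library of TEV plus reserpine (0.0627 and 0.0840).

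Ctsd, the gene of the aspartic protease cathepsin D, had 1970 and 1810 CPM with TEV plus reserpine, 1740 and 1760 CPM with TEV and 2040 and 2060 CPM with vehicle. Its fall with TEV was small (-0.23 ± 0.07, adjusted p = 0.0291). Ctsz, which encodes a carboxypeptidase, fell by a like amount (-0.28 ± 0.08, 0.0294). Both calls ended without any 1 of the 4 TEV and vehicle libraries (adjusted p between 0.0708 and 0.111 for Ctsd and between 0.0539 and 0.159 for Ctsz) and with the replicate number as a block (0.0560 and 0.0584), and that of Ctsd without a filter (0.0547). Neither was called in the other comparisons. Ctsf, a broadly expressed cysteine cathepsin, had 25.4 to 27.4 CPM with TEV plus reserpine, 25.0 and 26.8 CPM with TEV and 24.1 and 29.2 CPM with vehicle, and its groups overlapped in every comparison.

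The largest decreases were in 3 cysteine cathepsins with low counts in the vesicle groups. Ctsc encodes the dipeptidyl peptidase that activates granule serine proteases of leukocytes, Ctsk a collagenolytic protease best known from osteoclasts, and Ctss a protease of antigen-presenting cells. Ctsc had 1.83 and 0.861 CPM with TEV plus reserpine, 0.528 and 0.713 CPM with TEV and 20.8 and 21.4 CPM with vehicle. It fell by 5.05 ± 0.35 on the log2 scale with TEV (adjusted p = 8.06e-05) and with TEV plus reserpine (-4.01 ± 0.34, 0.000266), and was not called between the vesicle groups (1.03 ± 0.37, 0.0730). That difference was 0.44 without replicate 1 of TEV plus reserpine (0.361) and 1.52 without its replicate 2 (0.0243), where it was called, as it was with DESeq2 (0.0275) and without a filter (0.0363). Ctsk had 3.75 and 4.28 CPM with TEV plus reserpine, 4.50 and 4.12 CPM with TEV and 40.8 and 38.2 CPM with vehicle. Both vesicle groups lay far under vehicle and overlapped each other. Ctsk fell by 3.20 ± 0.14 with TEV (1.34e-05) and with TEV plus reserpine (-3.29 ± 0.14, 2.44e-05). Ctss had 0.0447 and 0.0574 CPM with TEV plus reserpine, 0.139 and 0.318 CPM with TEV and 1.28 and 1.98 CPM with vehicle. It fell by 2.74 ± 0.53 with TEV (0.00535), and the change was -3.51 without TEV replicate 2. With TEV plus reserpine only 3 counts remained, against 30 with TEV and 112 with vehicle. That made Ctss 4.99-fold lower than with TEV (95% counting interval 1.55 to 25.6) and 29.8-fold lower than with vehicle (9.93 to 146), and the edgeR test called the second difference (0.00214) and not the first (0.0685).

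Many markers of cells other than endothelium fell as well, with exceptions. Of 15 macrophage and leukocyte markers tested, 1 rose and 8 fell with TEV relative to vehicle (60%, against 49.7% of all genes). The one that rose was Cd68, a lysosomal glycoprotein of macrophages, with 9.07 and 8.87 CPM with TEV plus reserpine, 5.28 and 6.33 CPM with TEV and 3.58 and 2.86 CPM with vehicle. Another 6 were not called, among them Csf1r and Cx3cr1. Csf1r averaged 2.57 CPM with TEV plus reserpine, 3.31 CPM with TEV and 2.65 CPM with vehicle, and Cx3cr1 0.466, 0.887 and 0.389 CPM. The 19 such markers in the file summed to 39.5 and 38.3 CPM with TEV plus reserpine, 31.4 and 32.7 CPM with TEV and 69.6 and 81.6 CPM with vehicle. Ptprc, the leukocyte common antigen, stayed under 1 CPM in every library (0.0287 to 0.905), Lyz2, the lysozyme of myeloid cells, had 4.47 and 5.11 CPM with TEV plus reserpine, 4.86 and 3.16 CPM with TEV and 24.4 and 29.1 CPM with vehicle, and Siglecf and Fcgr1 were at 0 counts with TEV plus reserpine. Both were near 0 elsewhere too, with 30 counts of Siglecf with TEV and 2 with vehicle and with 1 and 4 counts of Fcgr1 in the same groups. Of 13 fibroblast markers tested, 1 (Thy1) rose and 11 fell with TEV (92.3%), and of 11 pericyte and smooth muscle markers all 11 fell. Relative to vehicle, 1 fibroblast marker rose and 10 fell with TEV plus reserpine (84.6%, against 39.1% of all genes). Of the pericyte and smooth muscle markers, 9 fell (81.8%). Relative to TEV, 5 fibroblast markers rose and 1 fell with TEV plus reserpine (46.2%, against 31.6% of all genes). Of the pericyte and smooth muscle markers, 4 rose (36.4%). Pericyte and smooth muscle markers summed to 943 and 866 CPM with TEV plus reserpine, 783 and 893 CPM with TEV and 2049 and 2024 CPM with vehicle. Tagln made up most of the sums in the vesicle groups, with 719 and 659 CPM, 648 and 719 CPM and 824 and 846 CPM in the same order. Notch3 (pericytes) and Dcn (fibroblasts) stayed near vehicle with TEV plus reserpine. Notch3 had 21.6 and 20.6 CPM with TEV plus reserpine, 3.28 and 6 CPM with TEV and 24.2 and 22.9 CPM with vehicle. Dcn had 27.7 and 24.2 CPM, 12.7 and 15.7 CPM and 26.8 and 35.5 CPM in the same groups. Dpt and Tcf21 (fibroblasts) and Cspg4 (pericytes) were at 0 counts with TEV plus reserpine, against 97, 29 and 1174 counts with vehicle. Tcf21 and Cspg4 were at 0 also with TEV. Lum and Mfap4 (fibroblasts) and Higd1b (pericytes) were at 0 with TEV plus reserpine too. These last had only 17, 12 and 1 counts with vehicle and did not pass the filter on low counts. Of 15 endothelial markers, 11 rose and 4 fell with TEV relative to vehicle, and 3 of the decreases passed 2-fold. Kdr, a receptor for vascular endothelial growth factor, had 463 and 495 CPM with TEV plus reserpine, 65.3 and 105 CPM with TEV and 343 and 306 CPM with vehicle. Cldn5, a tight junction protein, had 182 and 148 CPM, 20.2 and 37.3 CPM and 221 and 220 CPM in the same groups, and Vwf, von Willebrand factor, 8.44 and 6.63 CPM, 5.77 and 5.88 CPM and 51.3 and 43.4 CPM. Endothelial markers together summed to 11280 and 11060 CPM with TEV plus reserpine, 13770 and 13160 CPM with TEV and 5586 and 5520 CPM with vehicle. Of 9 colon tumour epithelium markers tested, 4 rose and 3 fell with TEV relative to vehicle (77.8%, against 49.7% of all genes). The 12 such markers in the file summed to 67.2 and 60.2 CPM with TEV plus reserpine. With TEV the sums were 70.6 and 73.4 CPM, and with vehicle 26.5 and 25.8 CPM. The part of these markers' cells in the changes of Ctsc, Ctsk and Ctss, or of any other member, was not tested. Nor was that of any RNA carried by the vesicles.

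**Figure D3:**
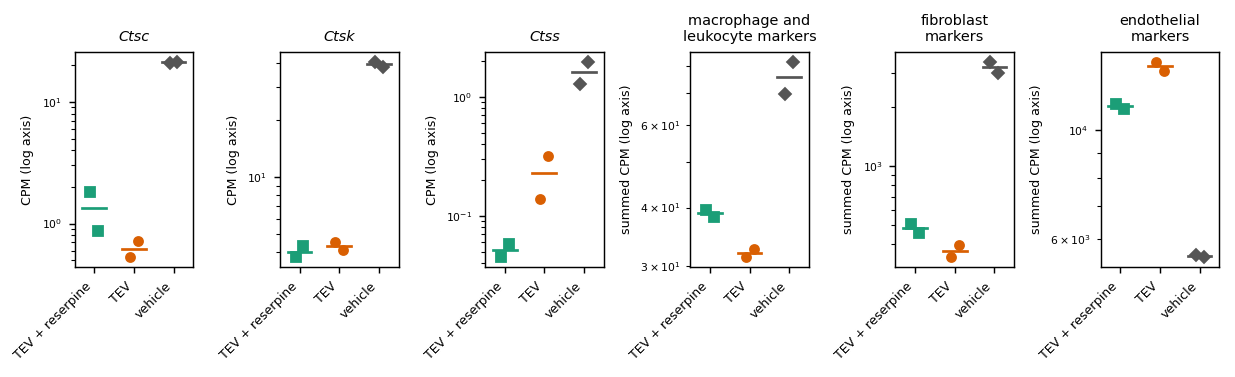
CPM of Ctsc, Ctsk and Ctss and summed CPM of macrophage, fibroblast and endothelial markers in each library, on log axes with a scale of their own in each panel; points are libraries and bars are means of 2. The 3 cathepsins and the macrophage and fibroblast sums are highest with vehicle, whereas the endothelial sum is lowest with vehicle. Thy1 makes up most of the fibroblast sum in both vesicle groups and was itself lowest with vehicle.

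Both other peptidases of the set fell with TEV, and neither was called between the vesicle groups. Of all genes, 49.7% were called in the first comparison (24.6% lower) and 31.6% in the second. Lgmn encodes legumain, which cleaves after asparagine, and had 106 and 105 CPM with TEV plus reserpine, 91.8 and 95.3 CPM with TEV and 124 and 126 CPM with vehicle. It fell by 0.42 ± 0.07 with TEV (adjusted p = 0.00336), a call that held under all alternatives. Its fall with TEV plus reserpine relative to vehicle (-0.25 ± 0.07, 0.0331) ended without vehicle replicate 1 (0.145) or 2 (0.156), without either library of TEV plus reserpine (0.116 and 0.115), and with the replicate number as a block (0.0692). Tpp1, a tripeptidyl peptidase, had 176 and 185 CPM with TEV plus reserpine, 152 and 158 CPM with TEV and 201 and 192 CPM with vehicle, and fell with TEV (-0.34 ± 0.07, 0.00856) except without vehicle replicate 1 (0.0701).

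Glycosidases and sulphatases split. Of 13, 4 rose and 5 fell with TEV relative to vehicle (69.2%, against 49.7% of all genes). Of these calls, 1 and 3 held under all alternatives. Relative to TEV, 3 rose and 3 fell with TEV plus reserpine (46.2%, against 31.6%). Relative to vehicle, 3 rose and 3 fell with TEV plus reserpine (46.2%, against 39.1%). Hexa encodes the alpha subunit of beta-hexosaminidase, which breaks down GM2 ganglioside. It had 134 and 125 CPM with TEV plus reserpine, 85.1 and 85.3 CPM with TEV and 176 and 175 CPM with vehicle, with no overlap between groups. Hexa fell by 1.04 ± 0.07 with TEV (adjusted p = 8.66e-05), was higher by 0.60 ± 0.07 with TEV plus reserpine than with TEV (0.00238) and lower by edgeR than with vehicle (-0.44 ± 0.07, 0.00444). Neu1, the gene of the sialidase that trims sialic acid from glycoproteins, had 46.6 and 35.8 CPM with TEV plus reserpine, 83.7 and 74.0 CPM with TEV and 36.8 and 31.9 CPM with vehicle. The libraries with TEV alone stood above the other 4, and TEV plus reserpine overlapped vehicle. Neu1 rose by 1.20 ± 0.15 with TEV (0.000877) and fell by 0.94 ± 0.15 with TEV plus reserpine relative to TEV (0.00598), and the difference between TEV plus reserpine and vehicle was not called (0.26 ± 0.15, 95% interval -0.10 to 0.62).

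Gaa, the glycogen-degrading acid alpha-glucosidase, was stepwise lower. It had 117 and 111 CPM with TEV plus reserpine, 152 and 148 CPM with TEV and 248 and 236 CPM with vehicle. It fell by 0.69 ± 0.07 with TEV (adjusted p = 0.000471) and with TEV plus reserpine relative to vehicle (-1.08 ± 0.08, 0.000133). The difference between the vesicle groups (-0.39 ± 0.07, 0.0105) was not called without replicate 2 of TEV plus reserpine (0.0561). Arsa, the sulphatase of sulphatide, ran the other way, with 216 and 194 CPM with TEV plus reserpine, 132 and 156 CPM with TEV and 111 and 110 CPM with vehicle. It was higher by 0.88 ± 0.10 with TEV plus reserpine than with vehicle (0.00106) under all alternatives. Its smaller rises ended in part. That with TEV relative to vehicle (0.38 ± 0.10, 0.0222) ended with library size alone (0.0983) and without vehicle replicate 1 (0.0892) or 2 (0.0993) or TEV replicate 2 (0.0957). That with TEV plus reserpine relative to TEV (0.51 ± 0.10, 0.0131) ended without TEV replicate 1 (0.0595) or replicate 1 of TEV plus reserpine (0.0712).

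Man2b1, an alpha-mannosidase, had 147 and 136 CPM with TEV plus reserpine, 128 and 131 CPM with TEV and 100 and 93.0 CPM with vehicle. It rose with TEV (0.42 ± 0.08, adjusted p = 0.00565; 0.0510 without vehicle replicate 2) and with TEV plus reserpine relative to vehicle (0.55 ± 0.08, 0.00288). Manba, the beta-mannosidase, had 51.9 and 71.0 CPM with TEV plus reserpine, 49.2 and 52.3 CPM with TEV and 39.5 and 40.0 CPM with vehicle, and was called with TEV plus reserpine relative to vehicle alone (0.63 ± 0.15, 0.0163), though not without vehicle replicate 1 (0.0762) or 2 (0.0655). Arsb, a sulphatase of dermatan and chondroitin sulphate, fell with TEV under all alternatives (-0.56 ± 0.11, 0.00481). It had 24.8 and 24.5 CPM with TEV plus reserpine, 21.1 and 22.6 CPM with TEV and 33.9 and 30.5 CPM with vehicle. With TEV plus reserpine relative to vehicle it fell as well (-0.39 ± 0.11, 0.0280), but not without vehicle replicate 1 (0.175) or 2 (0.0598) or either library of TEV plus reserpine (0.102 and 0.103), nor with the replicate number as a block (0.0533).

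Calls of 4 further enzymes ended when single libraries were left out. Gla, the alpha-galactosidase, had 16.6 and 17.7 CPM with TEV plus reserpine, 12.9 and 14.2 CPM with TEV and 19.3 and 37.3 CPM with vehicle, so the vehicle libraries differed most. Its fall with TEV (-1.05 ± 0.28, adjusted p = 0.0205) ended without vehicle replicate 2 (-0.50, 0.0564), TEV replicate 1 (0.0969) or TEV replicate 2 (0.0636). Ids, the iduronate sulphatase, had 40.4 and 54.0 CPM with TEV plus reserpine, 36.3 and 39.8 CPM with TEV and 56.0 and 51.3 CPM with vehicle, and its fall with TEV (-0.50 ± 0.15, 0.0285) ended without any 1 of the TEV and vehicle libraries (adjusted p between 0.0579 and 0.135), with log2 changes of -0.56 to -0.41 over all libraries left out. Glb1, the beta-galactosidase, had 100 and 93.4 CPM with TEV plus reserpine, 124 and 115 CPM with TEV and 102 and 101 CPM with vehicle. Its rise with TEV (0.23 ± 0.08, 0.0499) ended in 13 of the 15 alternatives (highest adjusted p 0.284, with library size alone), among them each of the TEV and vehicle libraries (0.0534 to 0.190) and replicate 2 of TEV plus reserpine (0.0585) left out, with log2 changes of 0.20 to 0.29 over all libraries left out. The decrease of Glb1 with TEV plus reserpine relative to TEV (-0.31 ± 0.08, 0.0299) ended in 8, among them every library but TEV replicate 2 left out (0.0625 to 0.129). Gusb, the beta-glucuronidase, had 82.6 and 67.5 CPM with TEV plus reserpine, 51.8 and 60.0 CPM with TEV and 68.9 and 67.6 CPM with vehicle, and its rise with TEV plus reserpine relative to TEV (0.42 ± 0.12, 0.0416) ended in 7, among them TEV replicate 1 (0.198), replicate 1 of TEV plus reserpine (0.187) and vehicle replicates 1 and 2 (0.0688 and 0.0693) left out. Naglu and Sgsh, which degrade heparan sulphate, were not called in any comparison. Naglu had 28.8 and 27.4 CPM with TEV plus reserpine, 28.0 and 28.6 CPM with TEV and 33.0 and 32.6 CPM with vehicle, and Sgsh 29.8 to 36.9 CPM over all 6 libraries.

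**Figure D4:**
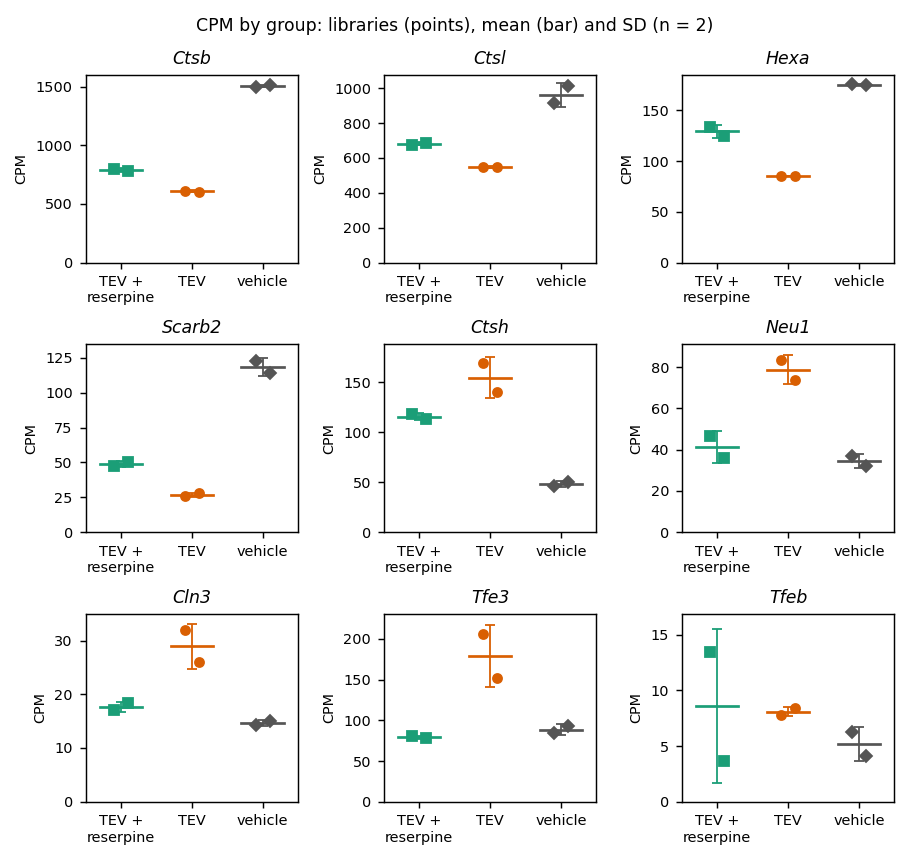
CPM of 9 members by group, with libraries as points, the mean as a bar and the SD of 2 libraries as an error bar; each panel has its own axis from 0. Ctsb, Ctsl, Hexa and Scarb2 are highest with vehicle and lowest with TEV, Ctsh, Neu1, Cln3 and Tfe3 are highest with TEV, and the Tfeb libraries with TEV plus reserpine lie apart at 13.5 and 3.70 CPM.

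Lipid hydrolases and their activators moved by at most 0.60 on the log2 scale. Of 6, 2 rose and 2 fell with TEV relative to vehicle (66.7%, against 49.7% of all genes). Of the decreases, 1 held under all alternatives. Relative to TEV, 2 fell with TEV plus reserpine (33.3%, against 31.6%). Relative to vehicle, 1 rose and 2 fell with TEV plus reserpine (50%, against 39.1%). Psap, the precursor of the saposins that present lipids to their hydrolases, had 1040 and 988 CPM with TEV plus reserpine, 1020 and 1000 CPM with TEV and 1320 and 1300 CPM with vehicle. Its vesicle groups overlapped each other and lay under vehicle, with a log2 change of -0.37 ± 0.07 in both comparisons with vehicle (adjusted p = 0.00354 for TEV and 0.00511 for TEV plus reserpine). Asah1, acid ceramidase, had 171 and 207 CPM with TEV plus reserpine, 229 and 211 CPM with TEV and 285 and 290 CPM with vehicle. It fell with TEV plus reserpine relative to vehicle under all alternatives (-0.60 ± 0.11, 0.00526), and with TEV (-0.39 ± 0.11, 0.0215) except without vehicle replicate 1 (0.0756), vehicle replicate 2 (0.0864) or TEV replicate 2 (0.0921). Smpd1, acid sphingomyelinase, had 67.0 and 62.4 CPM with TEV plus reserpine, 93.2 and 87.2 CPM with TEV and 75.7 and 74.3 CPM with vehicle. It was the lipid gene with a call between the vesicle groups that held under all alternatives (-0.48 ± 0.08, 0.00810), whereas its rise with TEV relative to vehicle (0.27 ± 0.08, 0.0353) ended in 5 of them, with library size alone (0.186), with the replicate number as a block (0.0535) and without vehicle replicate 1 (0.129), vehicle replicate 2 (0.161) or TEV replicate 1 (0.112).

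Ppt1, the thioesterase that removes palmitate from proteins, had 98.8 and 105 CPM with TEV plus reserpine, 145 and 123 CPM with TEV and 107 and 110 CPM with vehicle. Its rise with TEV (0.31 ± 0.10, adjusted p = 0.0409) ended in 7 alternatives, among them vehicle replicate 1 (0.164), vehicle replicate 2 (0.124), TEV replicate 1 (0.145) and replicate 2 of TEV plus reserpine (0.0565) left out. Its fall with TEV plus reserpine relative to TEV (-0.39 ± 0.10, 0.0269) ended in 6, with the replicate number as a block (0.0519) and without any 1 library other than TEV replicate 2 (0.0510 to 0.115). Gm2a, the GM2 activator, had 35.5 and 34.2 CPM with TEV plus reserpine, 29.1 and 31.6 CPM with TEV and 26.3 and 25.4 CPM with vehicle. It was called with TEV plus reserpine relative to vehicle (0.43 ± 0.10, 0.0141), though not without vehicle replicate 1 (0.0659) or 2 (0.0872) or replicate 1 of TEV plus reserpine (0.0601). Lipa, the acid lipase of cholesteryl esters and triglycerides, had between 63.2 and 73.2 CPM over the 6 libraries and no call.

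Among the 5 membrane proteins 1 rose and 2 fell with TEV relative to vehicle (60%, against 49.7% of all genes). Between the vesicle groups all 5 were called (against 31.6% of all genes), 1 higher and 4 lower with TEV plus reserpine. Of those 5 calls, that of Scarb2 held under all alternatives. Scarb2 encodes LIMP-2, the receptor that carries glucocerebrosidase to the lysosome. It had 47.2 and 50.2 CPM with TEV plus reserpine, 25.7 and 27.8 CPM with TEV and 123 and 114 CPM with vehicle, with wide gaps between the groups. Scarb2 fell by 2.15 ± 0.09 on the log2 scale with TEV (adjusted p = 1.43e-05), was higher by 0.86 ± 0.09 with TEV plus reserpine than with TEV (0.00158), and stayed under vehicle (-1.28 ± 0.09, 0.000143). Cln3, a membrane protein that is lost in a form of Batten disease, had 17.0 and 18.3 CPM with TEV plus reserpine, 31.9 and 26.0 CPM with TEV and 14.2 and 15.1 CPM with vehicle. It rose by 0.98 ± 0.14 with TEV (0.00129) and fell with TEV plus reserpine relative to TEV (-0.71 ± 0.13, 0.0103), though not without replicate 1 of TEV plus reserpine (0.0556). The difference between TEV plus reserpine and vehicle was not called (0.27 ± 0.14, 95% interval -0.06 to 0.60).

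Lamp1 and Lamp2 encode the abundant glycoproteins of the lysosomal wall. Lamp1 had 974 CPM in both libraries with TEV plus reserpine, 1270 and 1130 CPM with TEV and 1090 and 1130 CPM with vehicle. Lamp2 had 215 and 244 CPM with TEV plus reserpine, 311 and 276 CPM with TEV and 371 and 384 CPM with vehicle. For Lamp2 the libraries with reserpine were lowest and the vehicle libraries highest, and it fell with TEV plus reserpine relative to vehicle under all alternatives (-0.72 ± 0.10, adjusted p = 0.00178). Its fall with TEV (-0.37 ± 0.10, 0.0183) ended without vehicle replicate 1 (0.0619), vehicle replicate 2 (0.0858) or TEV replicate 2 (0.0805). Mcoln1, the calcium channel TRPML1, had 46.0 and 43.5 CPM with TEV plus reserpine, 57.7 and 53.4 CPM with TEV and 54.6 and 53.3 CPM with vehicle. The small decreases with TEV plus reserpine relative to TEV in Lamp1 (-0.30 ± 0.08, 0.0271), Lamp2 (-0.35 ± 0.10, 0.0337) and Mcoln1 (-0.31 ± 0.09, 0.0360) ended in 5, 7 and 9 of the 15 alternatives, each without TEV replicate 1 (0.109, 0.147 and 0.148) and without replicate 1 of TEV plus reserpine (0.0890, 0.143 and 0.0836), and those of Lamp1 and Mcoln1 also without its replicate 2 (0.0936 and 0.145). Those of Lamp2 and Mcoln1 ended too without vehicle replicate 1 (0.0595 and 0.0751) or 2 (0.0608 and 0.0762). That of Mcoln1 relative to vehicle (-0.27 ± 0.09, 0.0490) ended in 11, among them each of the 6 libraries left out (0.0593 to 0.210).

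Of 5 proton pump genes in the set, 1 was called in each comparison (20%). Of all genes, 49.7% were called for TEV against vehicle, 31.6% between the vesicle groups and 39.1% for TEV plus reserpine against vehicle. Atp6v1h, a regulatory subunit of the pump's cytosolic part, had 97.6 and 96.1 CPM with TEV plus reserpine, 187 and 143 CPM with TEV and 105 and 109 CPM with vehicle. Both TEV libraries stood above the other 4. It rose by 0.63 ± 0.13 with TEV (adjusted p = 0.00708) and fell by 0.77 ± 0.13 with TEV plus reserpine relative to TEV (0.00724), both under all alternatives, and the difference between TEV plus reserpine and vehicle was not called (-0.14 ± 0.13, 95% interval -0.45 to 0.17). Atp6v0a1, of the membrane part, had 88.8 and 97.0 CPM with TEV plus reserpine, 124 and 105 CPM with TEV and 123 and 127 CPM with vehicle. It fell with TEV plus reserpine relative to vehicle (-0.43 ± 0.10, 0.0176), though not without vehicle replicate 1 (0.0692) or 2 (0.0823) or replicate 1 of TEV plus reserpine (0.0920). Atp6v1a, the catalytic subunit, Atp6v0d1 and the accessory subunit Atp6ap1 had no call. Atp6v1a had 232 and 252 CPM with TEV plus reserpine, 278 and 262 CPM with TEV and 256 and 225 CPM with vehicle, and Atp6v0d1 130 and 120 CPM, 163 and 136 CPM and 150 and 149 CPM in the same groups. Atp6ap1 had 318 to 338 CPM over the 6 libraries. Among 12 further pump genes, 6 rose and 1 fell with TEV relative to vehicle (58.3%). Relative to TEV, 7 fell with TEV plus reserpine (58.3%). Relative to vehicle, 2 rose and 1 fell with TEV plus reserpine (25%). The 7 became 1 without TEV replicate 1 and without replicate 2 of TEV plus reserpine, and 2 without replicate 1 of that group, without either vehicle library or with library size alone, and the 6 became 3 without vehicle replicate 1 or TEV replicate 1 and with library size alone.

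Of the 3 regulators, 1 was called with TEV relative to vehicle (33.3%, against 49.7% of all genes). The same one was called between the vesicle groups (33.3%, against 31.6%). Tfe3, the gene of a TFEB relative, had 80.6 and 77.9 CPM with TEV plus reserpine, 206 and 152 CPM with TEV and 84.0 and 93.1 CPM with vehicle. Both TEV libraries stood above the other 4, and those with reserpine lay just under vehicle. Tfe3 rose by 1.02 ± 0.15 with TEV (adjusted p = 0.00160) and fell by 1.17 ± 0.15 with TEV plus reserpine relative to TEV (0.00264), both under all alternatives. The difference between TEV plus reserpine and vehicle was not called (-0.16 ± 0.15, 95% interval -0.51 to 0.19). Tfeb had 13.5 and 3.70 CPM with TEV plus reserpine, 7.80 and 8.40 CPM with TEV and 6.25 and 4.14 CPM with vehicle. The libraries with reserpine were the highest and the lowest of the 6. Tfeb was not called for TEV against vehicle (0.64 ± 0.54, 95% interval -0.64 to 1.91), for TEV plus reserpine against TEV (0.07 ± 0.53, -1.20 to 1.34) or against vehicle (0.70 ± 0.54, -0.59 to 2.00). Without replicate 2 of TEV plus reserpine the last of these was called (0.0201), and without replicate 1 its sign changed (-0.48, 0.303). Lamtor1, a subunit of the Ragulator complex that anchors mTORC1 signalling at the lysosome, had 72.0 and 63.2 CPM with TEV plus reserpine, 65.5 and 65.1 CPM with TEV and 78.0 and 78.3 CPM with vehicle. It missed the threshold for TEV against vehicle (-0.26 ± 0.09, 0.0506) and passed it in 9 of the 15 alternatives.

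**Figure D5:**
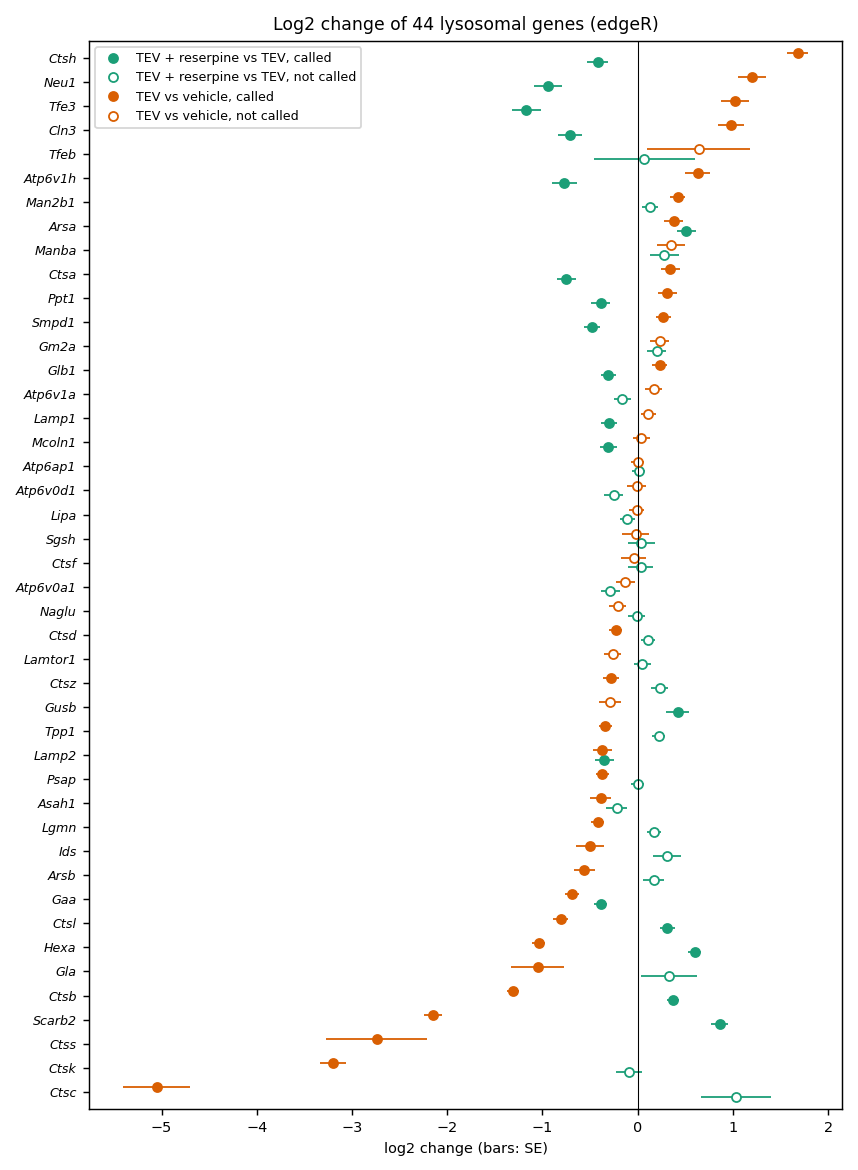
Log2 change of the 44 members for TEV plus reserpine relative to TEV (green) and for TEV relative to vehicle (orange), with bars for the SE and filled points for calls by edgeR; both comparisons use the TEV libraries, and Ctss is not drawn for the first because 3 counts remained. Genes are ordered by the TEV change, from Ctsh (1.68) at the top to Ctsc (-5.05) at the bottom.

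The rest of the lysosomal programme was read from a list of 95 other genes, of which 93 passed the filter. With TEV relative to vehicle 29 rose and 23 fell (55.9%, against 49.7% of all genes), with a median log2 change of 0.08. With TEV plus reserpine relative to TEV 9 rose and 31 fell (43.0%, against 31.6% of all genes, median -0.20), and relative to vehicle 18 rose and 20 fell (40.9%, against 39.1%, median -0.11). The first and last of these shares were near those of all genes. The 40 calls between the vesicle groups became 15 without TEV replicate 1, 18 without replicate 1 of TEV plus reserpine and 17 without its replicate 2, and the 38 calls of TEV plus reserpine against vehicle became 21 and 23 without vehicle replicate 1 and 2, and 24 without either library of TEV plus reserpine. Among the relatives of TFEB, Tfec had 15.7 and 21.2 CPM with TEV plus reserpine, 24.8 and 23.3 CPM with TEV and 6.90 and 7.52 CPM with vehicle. Tfec rose by 1.74 ± 0.17 with TEV (adjusted p = 0.000319) and by 1.36 ± 0.17 with TEV plus reserpine relative to vehicle (0.00138), and was not called between the vesicle groups (-0.38 ± 0.16, 0.123). Mitf had 5.32 and 5.28 CPM with TEV plus reserpine, 5.22 and 4.86 CPM with TEV and 4.20 and 4.18 CPM with vehicle, without a call. Flcn, the gene of folliculin, which acts on the Rag GTPases in nutrient sensing, had 44.8 and 41.5 CPM with TEV plus reserpine, 119 and 80.9 CPM with TEV and 54.7 and 52.4 CPM with vehicle, and fell by 1.21 ± 0.18 with TEV plus reserpine relative to TEV (0.00433). Rragd, one of those GTPases and a known TFEB target, had 1.30 and 2.41 CPM with TEV plus reserpine, 6.14 and 2.43 CPM with TEV and 14.7 and 14.9 CPM with vehicle. It fell by 1.81 ± 0.45 with TEV (0.0143; -2.59 without TEV replicate 1) and with TEV plus reserpine relative to vehicle (-2.97 ± 0.48, 0.00382).

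The other genes with the largest changes were hydrolases, a sorting receptor and autophagy genes. Naaa, which hydrolyses N-acylethanolamines, had 3.08 and 3.01 CPM with TEV plus reserpine, 3.83 and 3.22 CPM with TEV and 15.6 and 17.1 CPM with vehicle. It fell by 2.22 ± 0.17 with TEV (adjusted p = 0.000116) and with TEV plus reserpine relative to vehicle (-2.42 ± 0.18, 0.000145). Igf2r, the receptor that sorts mannose-6-phosphate-tagged hydrolases to the lysosome, had 130 and 136 CPM with TEV plus reserpine, 230 and 183 CPM with TEV and 717 and 614 CPM with vehicle. It fell by 1.69 ± 0.13 with TEV (0.000121) and with TEV plus reserpine relative to vehicle (-2.32 ± 0.13, 7.1e-05). Ctso, a cysteine cathepsin, and Hyal1, a hyaluronidase, were higher with TEV plus reserpine than with TEV (1.31 ± 0.18, 0.00345, and 1.27 ± 0.22, 0.00743). Ctso had 9.83 and 8.50 CPM with TEV plus reserpine, 3.28 and 4.06 CPM with TEV and 11.1 and 10.7 CPM with vehicle, and Hyal1 37.9 and 39.9 CPM, 12.2 and 19.9 CPM and 17.5 and 18.1 CPM in the same groups. Atg9b, an autophagy gene, had 12.2 and 13.2 CPM with TEV plus reserpine, 6.19 and 6.40 CPM with TEV and 2.88 and 3.24 CPM with vehicle, and was higher by 2.06 ± 0.17 with TEV plus reserpine than with vehicle (0.000211). Hif1a, the hypoxia-inducible factor gene, which is on the autophagy list, had 241 and 272 CPM with TEV plus reserpine, 1290 and 1000 CPM with TEV and 350 and 407 CPM with vehicle, and fell by 2.16 ± 0.15 with TEV plus reserpine relative to TEV (0.000482). Each of the called changes given for these genes, and for Tfec, Flcn and Rragd, held under all 15 alternatives.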

How the data were processed

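Polyadenylated RNA extracted with Trizol was made into TruSeq libraries and read as 75 bp single ends on a NextSeq 500, per the labels' protocols; the sources used here do not give the strand. The authors deposited estimated counts per gene symbol, made with kallisto 0.45.0 and R 4.0.0 with edgeR and limma per the submitters' processing notes, which name the build GRCh38 although the symbols are those of mouse genes. The 13098 genes of the authors' filtered table hold the raw table's estimated counts, with 0 values that differ, and 99.9% of the values above 0 are not whole (tolerance 1e-06).

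Groups followed the sample labels, though the series text can be read as giving reserpine to all cells. The replicate numbers are those of the titles, and the descriptions number the vesicle libraries differently. Estimated counts were rounded, filtered (filterByExpr, leaving 15035 genes) and scaled with TMM (factors 0.941 to 1.04). CPM values use these scaled libraries. Comparisons were contrasts of 1 edgeR quasi-likelihood fit to all 6 libraries with 3 residual degrees of freedom, adjusted by Benjamini-Hochberg within a comparison and called under 0.05 (R 4.3.3, edgeR 4.0.16, limma 3.58.1, DESeq2 1.42.0; tested on simulated data). The SE is the log2 change over the square root of F.

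The 15 alternatives were DESeq2 size factors, library size alone, no filter, the authors' filtered genes, DESeq2, limma-voom, only the groups compared, the replicate number as a block, libraries thinned to the smallest, and each library left out. Where a group was left with 1 library, it was taken to vary like the others. Counting intervals cover counting error only. Members and lists were chosen with earlier results of these data known. All members could be named. Of the 95 other lysosomal genes, the 4 called genes with the largest change in each comparison at a mean of at least 5 CPM, Mitf and Tfec were named. Promoter windows came from RefSeq.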

Additional observations from a re-analysis of the deposited data

How the results depend on the processing

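No call of a member changed sign under any of the 15 alternatives. Of the calls, 16 for TEV against vehicle, 8 for TEV plus reserpine against TEV and 14 for TEV plus reserpine against vehicle held throughout, and 13, 11 and 7 ended in at least 1. Leaving out 1 library gave 5 to 12 higher and 12 to 19 lower members for TEV against vehicle, with a median log2 change of -0.16 to -0.08. For TEV plus reserpine against TEV it gave 3 to 6 higher and 6 to 15 lower, with a median of -0.04 to 0.04, and for TEV plus reserpine against vehicle 3 to 6 higher and 11 to 16 lower, with a median of -0.21 to -0.17. Other lysosomal genes called numbered 38 to 51, 15 to 40 and 21 to 44 in the same comparisons. With library size alone, 6 members were higher with TEV (median -0.21), and the medians were 0.09 for TEV plus reserpine against TEV and -0.23 against vehicle. The share of all calls that were higher moved to 39.8% for TEV against vehicle, against 50.5%, and to 59.4% for TEV plus reserpine against TEV, against 49.5%. The causes were not tested.

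Differences between the replicates of a group, ordered by title number, were hardly correlated between groups (0.02, 0 and -0.07). This cannot show that the libraries were unpaired. The descriptions number the vesicle libraries differently, and a pairing by those numbers was not checked. With the replicate block, 8 members were higher and 16 lower for TEV against vehicle, 5 and 8 for TEV plus reserpine against TEV, and 5 and 13 against vehicle. The sign of Tfeb for TEV plus reserpine against TEV changed with limma-voom (-0.36), with the replicate block (-0.16) and over the libraries left out (-1.12 to 0.74), and that against vehicle changed over the libraries left out (-0.48 to 1.37). The depth of the smallest library limits what can be said of genes near 3 counts, such as Ctss with TEV plus reserpine.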
